A study of Mus musculus with 5 samples.

Results

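Gene expression after 12 h with Fanchinoline was compared with a vehicle control in MutuDC cells. These are an established line of mouse conventional type 1 dendritic cells (cDC1). The comparison rests on 2 of the 5 libraries of the series, 1 for the cells kept 12 h with the compound and 1 for the vehicle control, which the labels place at 0 h. It takes in every gene with at least 10 CPM (counts scaled to the size of the library) in either of these libraries, which is 8714 of the 53700 genes counted. The series follows the line through 0, 2, 6, 12 and 24 h to see how the compound changes transcription with time, and the 2, 6 and 24 h libraries are used here as context. All groups are the same line in culture and no genetic change is given for any of them. No dose is stated in the labels. The labels call the 0 h sample a vehicle control while the series' own design text calls the controls untreated, which leaves unsettled if solvent was added at 0 h. MutuDC cells are known as a tumour-derived line kept growing by a viral large T antigen driven by a dendritic cell promoter. With no vehicle library at 12 h, exposure to the compound and hours in culture cannot be told apart. The design text names triplicates, the count table has 1 library per time, and whether replicates were pooled is not stated. No difference has a replicate check and no p-value is given.

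Ratios are log2 ratios of scaled CPM, 12 h over vehicle, so that 1 is a 2-fold difference. They come with exact 95% intervals (Clopper-Pearson) that cover counting error only, since 1 library per time leaves no spread between replicates. PCR copies carry no molecular identifier and cannot be told from separate molecules, so the intervals may be too narrow even for counting error. The words called higher and called lower stand for a ratio of at least 2-fold with an interval that leaves out 1, a rule of size that compares libraries and not conditions. The libraries held 33568526 counts (vehicle) and 37999354 counts (12 h), so 10 CPM stood for 328 and 377 counts, and a count of 0 allows up to 0.0915 and 0.0795 CPM. By transcript length the vehicle library differed from each of the 4 treated ones. Genes with the longest transcripts (top quintile) had a median ratio above that of the bottom quintile by 0.70 against vehicle, but by only 0.10 when 12 h was set against 2 h and by 0.04 when it was set against 6 h. The share of mitochondrially encoded genes was 2.58% of vehicle counts and between 1.47% and 1.78% after treatment. Each result is therefore given, where it matters, also after adjustment for transcript length and GC content ("adjusted") and with the 2 h library in place of vehicle ("over 2 h"). Of 15 markers fixed for cDC1 cells 14 were compared and 0 were called, with 3664 against 4259 CPM for the lineage factor Irf8 and 222 against 237 CPM for Clec9a, a receptor for dead cells. Itgae was the exception, at 2.17 against 2.26 CPM. No marker of T and NK cells, neutrophils and mast cells, fibroblasts and endothelium, or epithelium and erythroid cells reached 10 CPM in either library, with summed levels of 1.799, 0.244, 7.44 and 10.7 CPM in vehicle and 1.62, 0.159, 7.58 and 8.48 CPM at 12 h. Markers of other dendritic cells were present. Of those for cDC2 and Langerhans cells 1 was compared, with a summed level of 120 CPM in vehicle and 131 CPM at 12 h. Of those for plasmacytoid dendritic cells 2 were compared (91.3 and 90.3 CPM), and 0 of either list were called. Fewer cells of a kind and less RNA per cell cannot be told apart in such bulk samples.

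Several transcription programmes recur in the results. Hypoxia-inducible factors (HIF) are held low by oxygen-using prolyl hydroxylases that also need iron. When stabilised they switch on genes for glucose uptake, glycolysis, lactate export and removal of mitochondria. Sterol regulatory element-binding proteins (SREBP) are released from the endoplasmic reticulum when its cholesterol runs low and drive cholesterol and fatty acid synthesis. ATF4, the effector of the integrated stress response, drives amino acid transporters and synthesis enzymes when translation initiation is curbed. In dendritic cells, glycolysis is known to go up on activation, and lysosomes process antigen.

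The HIF core, read as ACGTG or GCGTG on either strand, was looked for in RefSeq promoter windows of GRCm38.p6, which run from 250 bases before to 50 bases after a start site. All 18 compared HIF targets with a window held the core, 15 of them as ACGTG (83.3%), so it was not particular to called members. Of the 12 HIF targets called higher at 12 h, 9 had a window in the table and all 9 held the core, 8 of them as ACGTG. The same holds for 70.6% and 31.1% of the compared genes with a window, and for 43.8% and 19.6% of all 32851 windows. Their windows were also richer in G and C (68.9% against 61.5% in compared genes), and some genes have several windows, of which any may hold the core. Stretches of 80 bases are shown for the 6 highest of these genes, each placed where a window held the most matches, with these in capitals (ACGTG and GCGTG, or CACGT and CACGC where the match is on the other strand).
Ak4, chr4:101419184-101419263, plus strand: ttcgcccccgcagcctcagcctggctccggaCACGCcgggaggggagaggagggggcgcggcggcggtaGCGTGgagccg
P4ha2, chr11:54100789-54100868, plus strand: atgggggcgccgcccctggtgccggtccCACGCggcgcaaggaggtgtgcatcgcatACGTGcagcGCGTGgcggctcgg
Mgarp, chr3:51396718-51396797, minus strand: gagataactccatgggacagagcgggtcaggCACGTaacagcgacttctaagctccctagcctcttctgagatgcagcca
Bnip3, chr7:138909592-138909671, minus strand: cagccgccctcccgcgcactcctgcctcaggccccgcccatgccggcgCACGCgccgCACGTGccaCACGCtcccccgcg
Pdk1, chr2:71873079-71873158, plus strand: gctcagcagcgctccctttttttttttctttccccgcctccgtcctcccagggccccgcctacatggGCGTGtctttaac
Ankrd37, chr8:45999991-46000070, minus strand: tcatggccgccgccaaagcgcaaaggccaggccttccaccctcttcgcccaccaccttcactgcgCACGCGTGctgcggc
In the Bnip3 stretch 4 matches lie within a short run, with CACGTG counted on both strands as CACGT and ACGTG. In the Ankrd37 stretch CACGC and GCGTG overlap. A match is a description of the letters, not evidence of binding.

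The sterol element core CACCCCAC, on either strand, was held by 2 of the 9 cholesterol genes called higher that had a window, and by 2 of 30 over the whole cholesterol lists (6.67%). It was not particular to them, since 5 of 18 HIF targets (27.8%) and 9 of all 153 genes called higher with a window (5.88%) held it too, against 3.50% of compared genes and 2.87% of all windows. The 2 matches among called cholesterol genes are shown with the core in capitals.
Acat2, chr17:12960891-12960970, minus strand: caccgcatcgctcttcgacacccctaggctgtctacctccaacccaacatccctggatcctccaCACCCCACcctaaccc
Hmgcs1, chr13:119690151-119690230, plus strand: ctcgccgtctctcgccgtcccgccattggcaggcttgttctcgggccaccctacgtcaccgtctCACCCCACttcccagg
Windows of the other 7 did not hold these letters, which says nothing of the factor's binding elsewhere.

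At 12 h 269 genes (3.09% of those compared) were called, 203 higher (2.33%) and 66 lower (0.757%). List counts given below are to be read beside these shares. With so few genes called, 0 or 1 called in a list does not set that list apart. The median ratio over all compared genes was 0.02, with quartiles at -0.24 and 0.32. Differences of 4-fold or more were reached by 22 genes upward and 7 downward. A gene below 10 CPM in either library passed the filter only through the other one, which fixes the direction of its ratio. Bcar1, Peak1, Atp7a, Pdpr and Heg1 are among such higher genes, and Slc1a4, Cxcl9 and Neat1 among such lower genes. The adjusted ratios gave 123 genes higher (1.41%) and 45 lower (0.516%). Of the 203 higher and 66 lower genes, 90 and 30 were still called when adjusted, and the rest of the adjusted calls were new. Over 2 h the same compared genes gave 44 higher (0.505%) and 33 lower (0.379%).

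**Figure D1:**
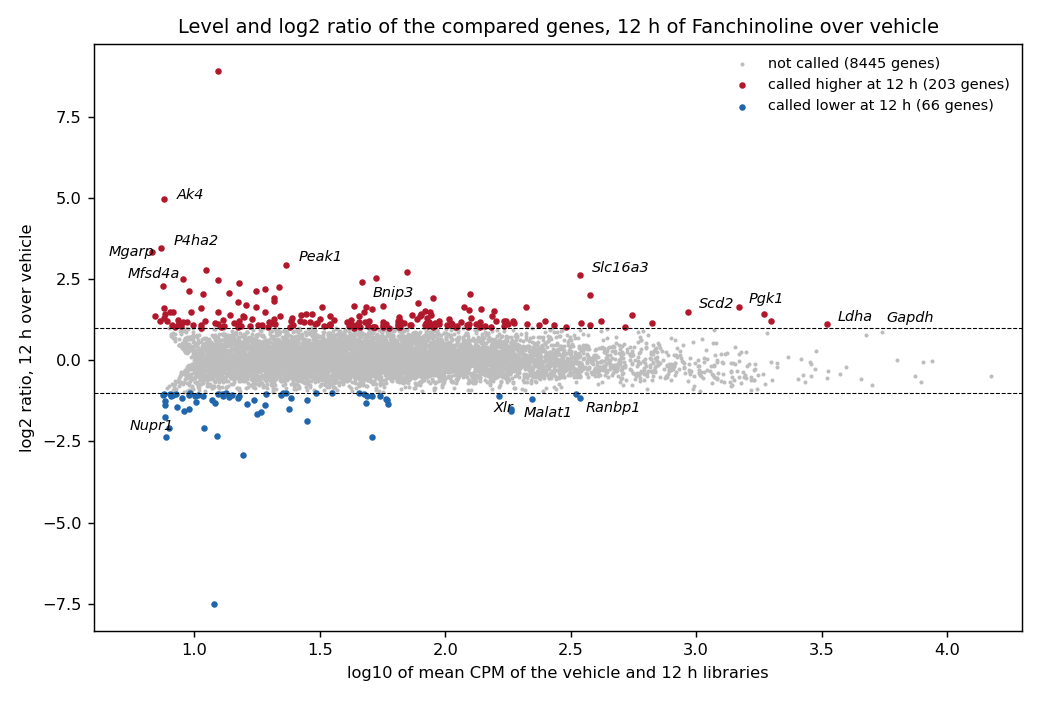
Mean level (log10 CPM of both libraries, x axis) against the log2 ratio of 12 h over vehicle (y axis) for the 8714 compared genes. Red points are the 203 genes called higher and blue points the 66 called lower, dashed lines mark a 2-fold difference, and the points beyond 7 and -7 are gene entries that share exons with others.

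Targets of HIF had the highest median of the 66 gene lists with compared members. Of 21 compared members 12 were called higher and 0 lower, and all 21 ratios were above 0, with a median of 1.09 (adjusted 1.38, over 2 h 0.83). Members below 10 CPM in vehicle passed the filter only through the 12 h library, which fixes their ratios above 0. Ak4, P4ha2, Mgarp and Ankrd37 are among these. The adjusted ratios again gave 12 called members, and over 2 h 10 were called, of which 9 are among the 12. The members were close to vehicle at 2 h, with a median of 0.19, and stood at 0.87 at 6 h and 1.18 at 24 h, ratios that share the vehicle library.

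The predicted gene Gm20716, which shares exons with Dpm1 and Adnp, had the largest ratio, 8.91. The next highest was Ak4 (ENSMUSG00000028527, chromosome 4, 101419277 to 101466995, plus strand, GRCm38), a nucleotide kinase of the mitochondrial matrix. It stood at 0.427 CPM in vehicle and 1.42, 7.09, 14.7 and 18.2 CPM after 2, 6, 12 and 24 h, with 14 and 555 counts in vehicle and at 12 h, and its ratio was 4.95 (4.35 to 5.99). Each library lay above the one before it. The matches in its promoter are those printed above. P4ha2 (chromosome 11, 54100095 to 54131665, plus strand), a catalytic subunit of the collagen prolyl hydroxylase, gave 1.19, 1.902, 7.42, 13.5 and 11.3 CPM in the same order and a ratio of 3.45 (3.04 to 4.02). Mgarp (chromosome 3, 51388412 to 51396738, minus strand), a mitochondrial protein of hypoxic cells, was level between vehicle and 2 h and then climbed (1.19, 1.15, 4.97, 12.3 and 16.05 CPM), with a ratio of 3.32 (2.9 to 3.88).

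The mitophagy receptors Bnip3 and Bnip3l, which tag mitochondria for removal, shared this time course. Bnip3 (chromosome 7, 138890836 to 138909519, minus strand) stood at 14.9 CPM in vehicle and 14.7, 54.8, 78.6 and 71.6 CPM after 2, 6, 12 and 24 h, a ratio of 2.399 (2.26 to 2.54). Bnip3l stood at 35.8, 30.4, 65.3, 120.4 and 123 CPM in that order, with 1.75 (1.66 to 1.84). Both were no higher at 2 h than in vehicle and were above it at 6, 12 and 24 h. The other 10 compared mitophagy genes were not called, among them Pink1 (0.46) and Phb2 (-0.56), a prohibitin. Higd1a, a small protein of the respiratory chain, gave 27.1, 26.3, 52.6, 86.1 and 88.7 CPM and 1.66 (1.56 to 1.77).

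The HIF targets Egln1 and Ankrd37 were also high. Egln1, the main oxygen-sensing prolyl hydroxylase, stood at 81.6 CPM in vehicle and 92.8, 184, 231 and 207 CPM after 2, 6, 12 and 24 h, a ratio of 1.499 (1.44 to 1.56). Ankrd37 gave 8.63, 15.5, 28.1, 32.8 and 24.97 CPM and 1.92 (1.74 to 2.12). Of the 7 compared oxygen sensors and HIF subunits Egln1 alone was called, while Hif1an, which hydroxylates HIF on asparagine, was at 0.92 (adjusted 0.54), Vhl, which marks HIF for destruction, at 0.55, Arnt at 0.401 and Hif1a itself at 0.29. Messages of the HIF subunits thus differed by less than 2-fold. Further called targets were the mTORC1 inhibitor Ddit4 (1.43), the repressor Bhlhe40 (1.09) and the stress gene Ndrg1 (1.05, adjusted 0.95, not called then). Just under the threshold lay Fam162a (0.99, adjusted 1.38) and the oxidase Ero1a (0.98). P4ha1, the sister subunit of P4ha2, was at 0.51, and the other 5 compared collagen hydroxylase genes lay between -0.18 (Crtap) and 0.28 (Plod3).

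Glycolysis genes stood higher from glucose uptake to lactate export, while Eno3 (-0.499) and the mitochondrial pyruvate carriers Mpc1 (-0.17) and Mpc2 (-0.54) lay below vehicle. Of 14 genes of glucose uptake and upper glycolysis 6 were called higher (median 0.78, adjusted 0.71), and of 11 genes from glyceraldehyde phosphate to lactate 4 (median 0.86, adjusted 0.91), with 0 lower in both. Over 2 h, 5 and 3 of them were called. Slc2a1, the glucose transporter GLUT1, stood at 49.04 CPM in vehicle and 88.5, 169, 202 and 178 CPM after 2, 6, 12 and 24 h, a ratio of 2.04 (1.96 to 2.12). Both hexokinases that trap glucose in the cell were called, Hk1 at 1.29 (73.4, 84.6, 136, 180.1 and 179 CPM) and Hk2 at 1.06 (111, 214, 238, 231 and 195 CPM). They differed in time, since Hk2 was already at its 12 h level at 2 h (0.11 over 2 h, adjusted 0.75) and Hk1 was not (1.09).

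Among the phosphofructokinases, the committed step of glycolysis, Pfkl alone was called, at 151 CPM in vehicle and 218, 472, 605 and 517 CPM after 2, 6, 12 and 24 h and a ratio of 2.004 (1.96 to 2.05). Pfkm and Pfkp were at 0.35 and 0.3. Of the aldolases Aldoc was called (1.505; 123 against 43.4 CPM), and Aldoa was at 0.84 (adjusted 1.08). Tpi1, triose phosphate isomerase, stood at 1.42 (1.404 to 1.44; 2717 against 1014 CPM).

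Further down, Pgk1, which makes the first ATP of the pathway, stood at 712 CPM in vehicle and 865, 1274, 2236 and 2269.8 CPM after 2, 6, 12 and 24 h, a ratio of 1.65 (1.63 to 1.67). Pgk1-rs7, an entry with near-identical sequence, was at 2.14 (15.5 against 3.48 CPM), so its reads may come from Pgk1. Eno1 (1.197) and Ldha, lactate dehydrogenase A (1.11), were called, and Pgam1 (0.92), Gapdh (0.86) and Pkm (0.79) were not. For such abundant messages even these ratios were large in counts. Gapdh gained the most CPM of any gene (7084 against 3890.3 CPM), followed by Pkm (5989 against 3467 CPM), Ldha (4556 against 2114 CPM), Tpi1, Eno1, Pgk1 and Aldoa. Summed over all 14 genes of the lower glycolysis list the level was 25559 CPM at 12 h against 12872 CPM in vehicle. The lactate exporter Slc16a3 (chromosome 11, 120948480 to 120960868, plus strand) had the largest ratio of the pathway, at 96.2 CPM in vehicle and 149, 477, 589.8 and 485 CPM after 2, 6, 12 and 24 h, 2.62 (2.56 to 2.67). It was highest at 12 h of the 5 libraries. Of the 25 compared members of both lists 24 had a promoter window and 22 of these held the HIF core (91.7%), 14 as ACGTG (58.3%). In all compared genes with a window the shares were 70.6% and 31.1%. Of the 10 called members 9 held the core (90%), 7 as ACGTG (70%).

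**Figure D2:**
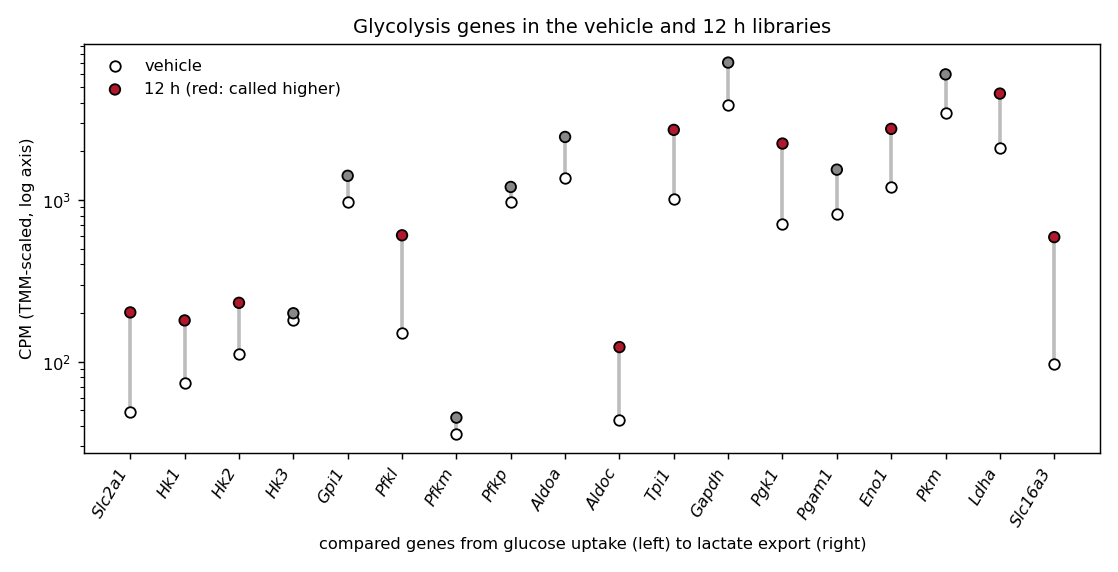
Levels of 18 glycolysis genes in CPM on a log axis, ordered from glucose uptake to lactate export, with open circles for vehicle and filled circles for 12 h (red where called higher, grey where not). Every filled circle lies above its open circle, by most for Slc16a3, Slc2a1 and Pfkl. Eno3, Mpc1 and Mpc2, the list members that lay below vehicle, are not among the genes drawn.

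Carbon entry into mitochondria was marked by 2 genes. Pdk1, the kinase that switches off pyruvate dehydrogenase, stood at 37.4 CPM in vehicle and 47.7, 105, 142 and 135 CPM after 2, 6, 12 and 24 h, a ratio of 1.92 (1.83 to 2.01). Pdpr, a regulator of the opposing phosphatase, was at 3.81, 19.1, 21.1, 21.1 and 22.8 CPM in that order and 2.45 (2.19 to 2.75), but over 2 h only 0.14. The other 7 compared genes of the complex lay between -0.19 (Dld) and 0.76 (Pdp2). Of 12 glycogen genes 2 were called higher (median 0.30, adjusted 0.08), among them Pgm1, phosphoglucomutase, at 1.63 (318 against 103 CPM), while glycogen synthase Gys1 was at 0.83. None of 8 pentose phosphate genes was called (median 0.10). Of 21 citric acid cycle genes 0 were called either (median 0.08), the largest ratio being that of the cytosolic isocitrate dehydrogenase Idh1 (0.86, adjusted 1.12).

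Respiratory chain genes lay slightly below vehicle. The 62 nuclear-encoded subunits had a median of -0.26 with 0 called and 8 above 0. After adjustment their median was 0.06 and over 2 h -0.002. The 13 mitochondrially encoded messages had a median of -0.62 with 1 called lower, mt-Nd6 (475, 169, 157, 212 and 198 CPM; -1.16, adjusted -0.45). Their adjusted median was -0.07, and over 2 h it was 0.25. All mitochondrial messages but one were below vehicle at 12 h. The level at 2 h was lower still, and the part of transcript length in this was not tested beyond the adjustment.

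Of the 22 compared cholesterol synthesis genes Ggps1, which makes a side product of the pathway, alone lay below vehicle (-0.25). Of 10 mevalonate pathway genes 5 were called higher (median 0.92, adjusted 0.88, over 2 h 0.66), and of 12 genes from squalene to cholesterol another 5 (median 0.98, adjusted 1.001, over 2 h 0.79), with 0 lower. Acat2, which joins acetyl groups for the pathway, stood at 70.3 CPM in vehicle and 81.4, 146, 208 and 153 CPM after 2, 6, 12 and 24 h, a ratio of 1.56 (1.496 to 1.63). Its neighbour Acat3, a near copy, was at 2.07 (22.2 against 5.25 CPM), so reads of the pair may be shared. Hmgcs1 (1.14; 478 against 218 CPM), Mvd (1.199) and Idi1 (1.18), enzymes of the same pathway, were also called. The core printed for Acat2 and Hmgcs1 was not in the windows of Idi1 and Mvd.

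Lss, which closes the sterol ring, stood at 57.9 CPM in vehicle and 91.4, 134, 180.4 and 154 CPM after 2, 6, 12 and 24 h, a ratio of 1.64 (1.57 to 1.71; adjusted 1.22). Hsd17b7 was at 1.21, Dhcr7 at 1.08 and Nsdhl at 1.07. Sqle, squalene epoxidase, lay just under the threshold with 178, 222, 312, 356 and 297 CPM in library order (0.996). Of the 10 called sterol synthesis genes Acat2, Idi1, Hmgcs1 and Nsdhl were also called over 2 h. All 10 had their highest level at 12 h among the 5 libraries, as with Mvd (151, 184, 283, 347 and 266 CPM).

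Uptake and control of cholesterol followed at smaller ratios. Of 18 compared genes 3 were called higher (median 0.58, adjusted 0.39, over 2 h 0.08). Among them were the sterol carrier Stard4 (1.38; 116 against 44.6 CPM) and Lrp1 (1.37, adjusted 0.68), a large endocytic receptor. Insig1, which retains SREBP, was at 0.85, Srebf1 at 0.75 and Srebf2 at 0.695. The last 2 had reached these levels at 2 h (0.09 and 0.08 over 2 h). Of 6 genes of cholesterol export and storage 0 were called, with Abcg1, an exporter, at -0.54 and Soat1, which esterifies cholesterol, at 0.35.

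Fatty acid synthesis stood above vehicle with 4 of 14 genes called higher (median 0.61, adjusted 0.58, over 2 h 0.40). Scd2, a desaturase, stood at 488 CPM in vehicle and 754, 1177, 1374 and 1239 CPM after 2, 6, 12 and 24 h, a ratio of 1.49 (1.47 to 1.52). Fasn, fatty acid synthase, gave 306, 616, 806, 805 and 626 CPM and 1.397. Acaca (1.27) and Acly, which supplies acetyl-CoA (1.2), completed the set. Adjusted, Scd2 (1.22) and Acly (1.03) were still called, and Fasn (0.79) and Acaca, both long transcripts, were not. Lpin1, a phosphatidate phosphatase, was called among 9 lipid droplet genes (1.65; 65.7 against 20.9 CPM). Of 19 fatty acid oxidation genes 0 were called (median -0.13), with Cpt1a at 0.504, and of 19 sphingolipid enzymes also 0 (median 0.08).

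Amino acid and stress genes had medians below vehicle at 12 h and lower still over 2 h, with members in both directions. Of 13 amino acid transporters 1 was called lower against vehicle (median -0.08, 6 above 0) and 5 lower over 2 h (median -0.41). Slc1a4, a transporter of small neutral amino acids, stood at 17.5 CPM in vehicle and 60.4, 28.1, 8.48 and 6.72 CPM after 2, 6, 12 and 24 h, a ratio of -1.04 (-1.25 to -0.85) and of -2.82 over 2 h. The 2 h library was the highest and the 12 and 24 h libraries lay below vehicle. Slc7a5, the leucine transporter, was at 209, 487, 318, 139 and 107 CPM (-0.59), its partner Slc3a2 at -0.69 and the glycine transporter Slc6a9 at -0.52, with -1.804, -1.04 and -1.78 over 2 h. Slc43a2, a further amino acid transporter, went the other way and stood at 0.97 (adjusted 0.5).

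Enzymes of serine, asparagine, proline and one-carbon metabolism had 0 of 15 called (median -0.30) and 3 lower over 2 h (median -0.59). Asparagine synthetase Asns stood at 118, 141, 138, 64.6 and 44.8 CPM in library order (-0.87). Over 2 h Gpt2, an alanine transaminase, was at -1.65, Asns at -1.13 and the proline enzyme Aldh18a1 at -1.097. Mthfd1l, a mitochondrial folate enzyme, was an exception at 0.73.

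Of 18 regulators of the integrated stress response 1 was called higher and 1 lower (median -0.25), and over 2 h 5 lower (median -0.59). The lower one was Nupr1, a stress-induced chromatin protein, with 11.8 CPM in vehicle and 11.1, 9.94, 3.45 and 2.08 CPM after 2, 6, 12 and 24 h, a ratio of -1.76 (-2.07 to -1.48). Its fall lay between 6 and 12 h. The higher one was Ddit4, which is also among the HIF targets above. Ddit3, which encodes CHOP, was at -0.91, Chac1 at -0.83, Trib3 at -0.51 and Atf4 itself at -0.51, with 22.1, 65.5, 35.6, 15.5 and 9.96 CPM for Trib3 in library order. The ATF4 core, read as TGATGNAA on either strand, was in the windows of 10 of 39 genes of these 3 lists (25.6%), against 2.65% of compared genes. Among genes with a window it was held by 2 of 153 called higher (1.31%) and 3 of 31 called lower (9.68%). The share describes the letters in the windows of the lists. It is not evidence of binding or of a change at 12 h. The 21 cytosolic aminoacyl-tRNA synthetases had 0 called and a median of -0.17 (-0.36 over 2 h), with Gars at -0.49.

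Protein folding genes lay mildly below vehicle. Of 26 genes of endoplasmic reticulum folding and its stress response 0 were called (median -0.28, adjusted -0.15), from Manf, a secreted chaperone (-0.95), to the sensor Ern1 (0.77). Of 16 heat shock genes 0 were called (median -0.24), with the abundant Hspa8 at -0.56 and the cochaperone Dnajb1 at 0.49. The 24 redox genes had a median of -0.06 with 0 called. Within them the arrestin-like Txnip, known to respond to glucose, was at 96.1, 116, 134, 189 and 258 CPM (0.97, adjusted 1.08) and its relative Arrdc4 at 0.75 (1.19 over 2 h).

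Genes of protein synthesis were low as groups, with almost no member past the fold. The 82 cytosolic ribosomal protein genes had a median of -0.33 with 0 called and 4 above 0, and their adjusted median was -0.01. The largest difference was that of Rps24 (-0.88). Rpl13 stood at 727, 950.2, 946, 465 and 387 CPM in library order, so that it was -0.64 against vehicle and -1.03 over 2 h. Ribosome biogenesis genes (37, median -0.35, adjusted -0.21) had 0 called, with the nucleolar Nop56 at -0.83, Ppan at -0.81 and Nop58 at -0.69 (adjusted -1.095). Of 41 translation factors 0 were called (median -0.14). Mitochondrial ribosomal proteins (77, median -0.39, adjusted -0.23) had 1 called lower, Mrps15 (-1.18; 80.9, 51.98, 52.5, 35.6 and 34.5 CPM). Of 37 proteasome subunits 0 were called (median -0.20, adjusted 0.00).

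**Figure D3:**
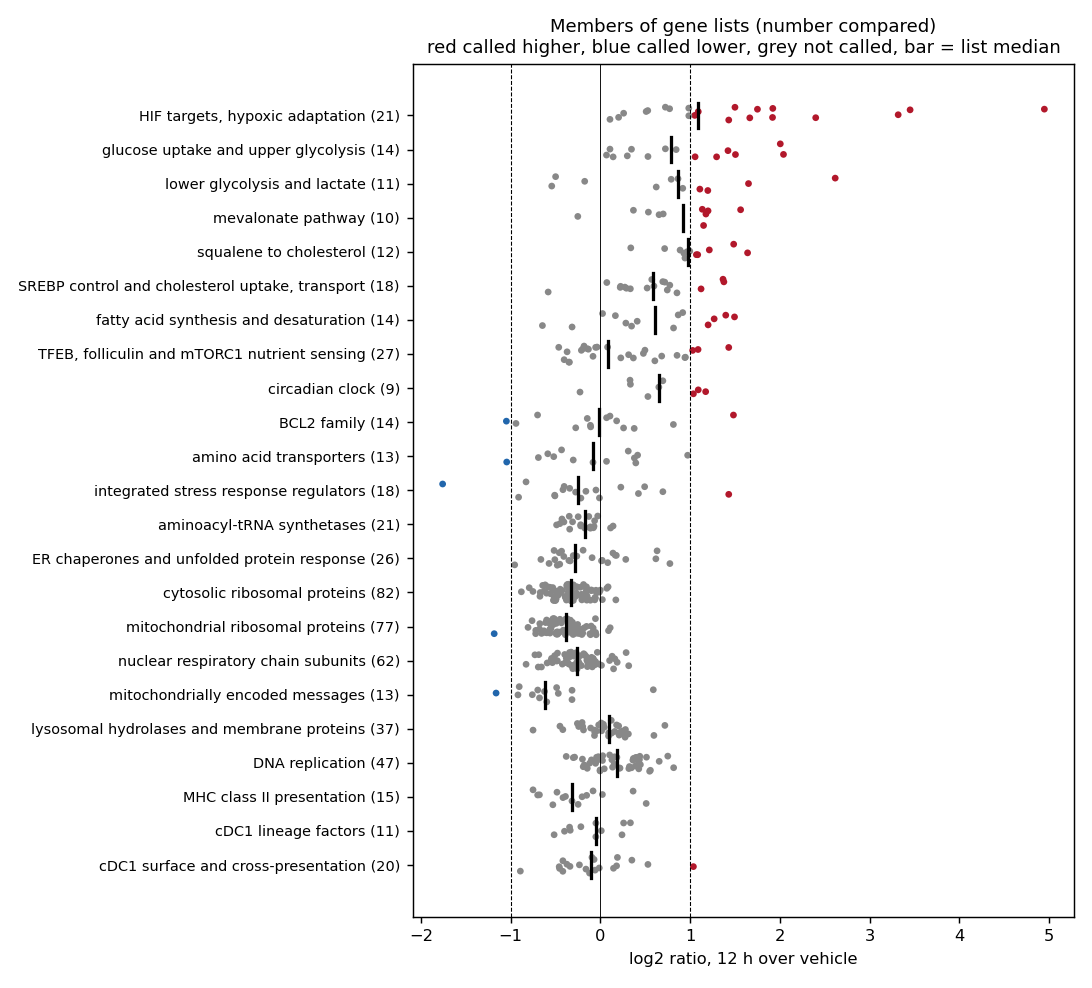
Log2 ratios of 12 h over vehicle (x axis) for the compared members of 23 gene lists (rows, with the number of members), red where called higher, blue where called lower and grey where not called, with a black bar at each list's median. HIF targets, glycolysis, sterol and fatty acid lists lie to the right, with medians of 0.58 to 1.09, and the ribosomal and mitochondrial lists to the left of 0.

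Lysosomal genes stayed close to vehicle. Of 37 hydrolases and membrane proteins 0 were called (median 0.09), from Cd68 (-0.75) to Ids (0.72), an iduronate sulfatase, with the cholesterol exporter Npc1 at 0.596. Of 16 proton pump subunits 0 were called (median 0.21, adjusted 0.25), the highest being Atp6v1a (0.76; 44.3, 59.02, 67.5, 74.98 and 82.9 CPM). Of 25 lysosomal and endoplasmic reticulum channels and pumps 2 were called, the chloride exchanger Clcn3 (1.38; 48.6, 65.8, 108, 126 and 131 CPM) and the calcium channel Itpr3 (1.01, adjusted 0.44). The 2-pore channel Tpcn1 was at 0.61. Among 27 genes of TFEB, folliculin and mTORC1 sensing Ddit4, Flcn (1.09) and Fnip1 (1.03, adjusted 0.88) were called. Flcn and Fnip1, which act together on lysosomal nutrient sensing, were higher again at 24 h (15.8, 29.6, 31.5, 33.6 and 51 CPM for Flcn). Of 35 autophagy genes only Wdfy3 was called (1.2, adjusted 0.51), where 2.33% of all compared genes were called higher.

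In iron handling 1 of 16 genes was called. Tfrc, the transferrin receptor through which iron enters, stood at 85.7 CPM in vehicle and 135, 219, 221 and 241 CPM after 2, 6, 12 and 24 h, a ratio of 1.37 (1.31 to 1.43; adjusted 1.35). Its level was flat from 6 h on. The ferritin heavy chain Fth1, which stores iron, was at -0.61, and Ncoa4, which sends ferritin to lysosomes, at 0.59. The copper transporter Atp7a was among the highest of all genes (4.79, 19.6, 23.7, 25.2 and 30.3 CPM; 2.38), of which most was present at 2 h (0.36 over 2 h).

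Proliferation genes were near vehicle. Of 47 DNA replication genes 0 were called (median 0.18, adjusted 0.31), the highest being Pola1 (0.82), and of 38 mitosis genes 0 (median 0.09, over 2 h 0.30), with Bub1 at 0.85 and Ube2c at -0.64. Among 23 cyclins, kinases and inhibitors 1 was called, Ccng2, an atypical cyclin of arrested cells, at 12.2 CPM in vehicle and 8.14, 17.2, 29.2 and 31.8 CPM after 2, 6, 12 and 24 h, a ratio of 1.26 (1.097 to 1.43). Its 2 h level was below vehicle and its 12 h level above it. The inhibitor Cdkn1a was at 0.54 and Cdkn2d at 0.77. Of 16 p53 genes 0 were called (median 0.04), with Sesn2 at 86.9, 173, 104, 65.7 and 62.9 CPM in library order (-0.404, and -1.396 over 2 h).

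In the BCL2 family the members went in both directions. Bcl2l11, which encodes the death-promoting BIM, stood at 24.98 CPM in vehicle and 35.9, 44.5, 69.9 and 109 CPM after 2, 6, 12 and 24 h, a ratio of 1.48 (1.37 to 1.599). It lay higher in each later library. Bmf, another death-promoting member, was at 0.81 and not called. The survival genes Bcl2a1a (-1.05, adjusted -0.61), Bcl2a1b (-0.94) and Bcl2a1d (-0.7) were lower, the first called. These 3 are near copies and their reads may be shared. Bcl2l1 was at 0.38, and the median of the 14 members was -0.02. Among 21 apoptosome and caspase genes Birc6 (1.03, adjusted 0.398) and Apaf1 (1.02, adjusted 0.68) were called, and neither when adjusted. Casp9 was at 0.75.

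Dendritic cell identity and antigen presentation genes were mostly within 2-fold of vehicle. Of 11 cDC1 lineage factors 0 were called (median -0.05). Batf3 was at -0.52 (71.7, 60.4, 60.1, 50.2 and 43.4 CPM), Zbtb46 at -0.34, Id2 at -0.4 and Irf8 at -0.22. Of 20 cDC1 surface and cross-presentation genes 1 was called higher, the endocytic receptor Ly75 (58.96, 90.5, 109, 121 and 114 CPM; 1.04, adjusted 0.68). Cd8a was the lowest (32.5, 26.7, 26.6, 17.5 and 13.7 CPM; -0.89), with Flt3, the growth factor receptor of the lineage, at -0.42 and Xcr1, the chemokine receptor, at -0.23. Wdfy4, needed for cross-presentation, was at 0.53 against vehicle and -0.46 over 2 h.

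Of 15 class II genes 0 were called (median -0.32, adjusted -0.14), yet 12 of them lay below vehicle. H2-Eb1 stood at 642 CPM in vehicle and 576, 483, 382 and 386 CPM after 2, 6, 12 and 24 h (-0.75). H2-Ab1 was at -0.699 and the invariant chain Cd74 at -0.68 (6056 against 9698 CPM), while their transactivator Ciita was at 0.51. Of 22 class I genes 0 were called (median -0.15, adjusted -0.08), with B2m at -0.57 (adjusted -0.07). Of 17 innate sensors Tlr9, which detects DNA in endosomes, was called at 1.12 (57.1, 126, 122, 124 and 157 CPM), a level already present at 2 h.

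Signs of activation were few. Of 12 compared maturation genes 1 was called lower, the chemokine Cxcl9 (20.6, 13.9, 11.7, 9.25 and 12.9 CPM; -1.15), with Cd40 at -0.45, Cd86 at -0.296 and Relb at -0.61. Interferon-stimulated genes (18, median -0.02), NF-kB genes (14, median -0.09) and immediate early genes (19, median -0.01) had 0 called each, with Oas3 at 0.79, Rel at 0.88 and Jund at -0.84 as examples.

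Some smaller lists held called members. Of 9 circadian clock genes Ciart (1.17), Bhlhe40 (1.09) and Tef (1.04) were called higher (median 0.65, adjusted 0.51). Hours in culture and exposure changed together, so clock phase and compound cannot be told apart. Of 22 histone lysine demethylases, oxygen-using enzymes of chromatin, Kdm4b (25.3, 44.2, 66.3, 76.4 and 65.3 CPM; 1.59) and Kdm5a (1.08, adjusted 0.58) were called (median 0.53, adjusted 0.22). Kdm3a was at 0.77. In focal adhesions Bcar1, a docking protein, stood at 2.78 CPM in vehicle and 3.56, 10.6, 19.4 and 20.9 CPM after 2, 6, 12 and 24 h, a ratio of 2.78 (2.49 to 3.14). Vinculin Vcl was called too (1.43), and the other 24 compared adhesion genes lay between -0.51 (Zyx) and 0.61 (Itgav). Actin genes had 0 of 36 called (median -0.19). Actb nonetheless lost the most CPM of any gene (12429 against 17572 CPM; -0.499), followed by Cd74, Tmsb4x (-0.76) and mt-Co1 (-0.49).

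Of the 203 higher genes 36 were also called for 12 h over 2 h, a comparison that shares the 12 h library. Splitting the genes by that call fixes how far apart the 2 and 12 h levels lie on each side, so the medians by time are given as a description only. For the 36 genes the median ratios against vehicle were 0.16, 1.05, 1.66 and 1.63 after 2, 6, 12 and 24 h. Their median transcript length was 3044 bases, and 3 of 36 belonged to the longest quintile of transcripts. The set held the HIF targets Ak4, P4ha2, Mgarp, Bnip3, Bnip3l, Pdk1, Ankrd37, Higd1a and Egln1, the glycolysis genes Slc2a1, Hk1, Pfkl, Aldoc, Tpi1, Pgk1, Eno1 and Slc16a3, and the sterol genes Acat2, Hmgcs1, Idi1 and Nsdhl. It also held Plekha6 (6.68, 7.21, 13.6, 23.2 and 23.4 CPM) and Pgm1 (103, 111, 241, 318 and 293 CPM).

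The other 167 genes had medians of 0.83, 1.03, 1.15 and 1.21 in the same order, and 49 of them were past the fold at 2 h. They also held genes that were still climbing after 2 h and missed the fold, such as Lpin1 (0.98 over 2 h), Lss (0.98) and Ldha (0.93). The median transcript length of the 167 was 7647 bases, and 120 of 167 belonged to the longest quintile. Several genes stood high at 2 h already. Peak1, a pseudokinase of the cytoskeleton, stood at 5.34 CPM in vehicle and 30.8, 39.97, 41.1 and 45.98 CPM after 2, 6, 12 and 24 h, a ratio of 2.93 (2.72 to 3.18; 0.42 over 2 h). Plekhm3, an endosomal adaptor, gave 18.7, 112, 111, 122 and 141 CPM and 2.71. The same shape held for Heg1 (6.83, 32.3, 30.8, 31.3 and 30.3 CPM; 2.19), a membrane receptor, for the nuclear receptor Nr2c2 (1.82), for the kinase Hipk2 (1.62), for the corepressor Lcor (1.62) and, with a further step later, for the DNA damage kinase Atm (7.56, 17.4, 25.4, 24.4 and 35.6 CPM; 1.69). After adjustment 55 of these 167 were still called, against 35 of the 36.

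**Figure D4:**
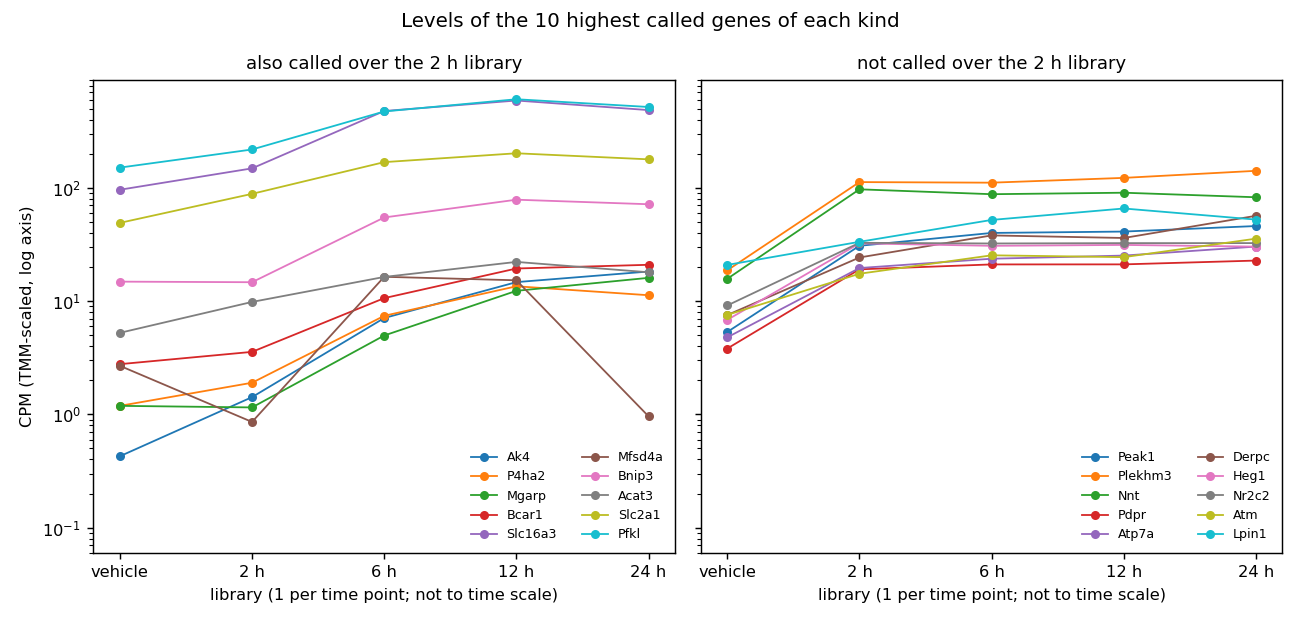
CPM on a log axis in the 5 libraries for the 10 highest called genes with ordinary symbols (no predicted genes or related sequences) that were also called over the 2 h library (left) and the 10 highest that were not (right), each line a gene. The genes on the left climb between 2 and 12 h, as the choice requires, and Mfsd4a drops back to 0.960 CPM at 24 h, while most on the right step up between vehicle and 2 h.

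By transcript length, 7.07% of genes in the longest quintile were called higher and 0.172% lower, against 1.15% and 1.95% in the shortest. The longest quintile held 123 of the 203 higher genes and the shortest 34 of the 66 lower genes. The median transcript was 6901 bases in higher genes, 1916.5 in lower genes and 3440 in all compared genes. By GC content the highest and lowest quintiles differed by -0.01 against vehicle. With the 2 h library as baseline this gap was wider, at -0.23, and the 6 h baseline gave -0.15. The ratios called over 2 h above are not adjusted for GC content. How far library preparation or RNA quality enters the length pattern was not tested.

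**Figure D5:**
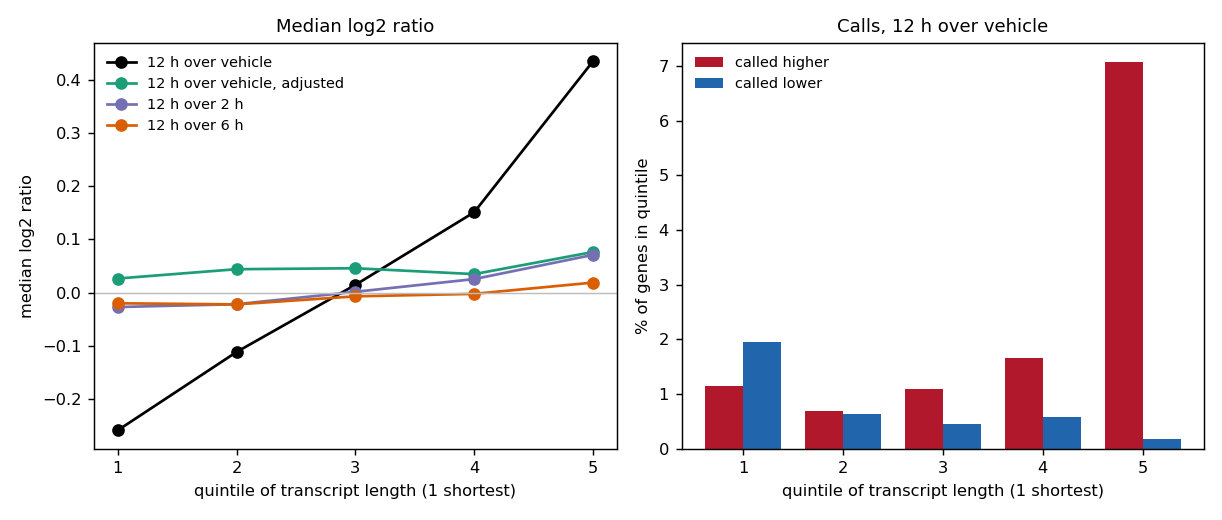
Left, median log2 ratio by quintile of transcript length for 12 h over vehicle, the same adjusted, 12 h over 2 h and 12 h over 6 h, and right, the percentage of genes called higher (red) and lower (blue) against vehicle in each quintile. The vehicle line climbs from -0.26 to 0.44, and the other 3 lines stay between -0.03 and 0.08.

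The 66 lower genes were fewer, less abundant and often entries that share exons with others. Their median level in the higher library was 21.98 CPM, against 69.1 CPM for the higher genes. Among those with no same-strand overlap, Rffl, a ubiquitin ligase, stood at 17.7 CPM in vehicle and 4.02, 3.11, 4.08 and 2.81 CPM after 2, 6, 12 and 24 h, a ratio of -2.102 (-2.38 to -1.86). It had dropped by 2 h and stayed low. Apol7c, an apolipoprotein L of dendritic cells, lay lower in each later library (26.9, 14.2, 9.703, 8.56 and 4.66 CPM; -1.65). Nupr1, Erdr1 (13.7, 11.1, 10.8, 4.53 and 3.02 CPM; -1.58) and Ppp1r14a, a phosphatase inhibitor (14.03, 15.5, 12.1, 4.96 and 5.599 CPM; -1.49), instead stood near vehicle until 6 h and were low at 12 h. Xlr, a lymphocyte-regulated X-linked gene, was at 104 against 222 CPM (-1.09, adjusted -0.68) and the transcription factor Cebpd at 9.01 against 19.2 CPM (-1.08). Rffl, Apol7c, Nupr1, Erdr1, Ppp1r14a and Cebpd lay below 10 CPM at 12 h. They passed the filter only through vehicle, which fixes their ratios below 0. The nucleolar Lyar (-1.23) and the spliceosome protein Snrpf (-1.11) were called, and neither when adjusted (-0.96 and -0.62). Rffl, Cebpd and Snrpf overlap exons of a gene on the opposite strand, which a kit that does not mark strand cannot separate.

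Of the 66 lower genes 24 (36.4%) overlap the exons of a second gene in the same orientation, as do 9.396% of all compared genes and 20 of the 203 higher genes (9.85%). A partner with counts was found for 22 of the lower and 19 of the higher genes. With the partners' counts added, 3 of these 22 and 10 of these 19 were still called. Partners on the opposite strand were not added. On either strand, 56.1% of lower, 36.9% of higher and 38.8% of all compared genes overlap another gene's exons. The entries of Nnt, a mitochondrial transhydrogenase, were called in opposite directions. In vehicle, 2, 6, 12 and 24 h ENSMUSG00000025453 gave 15.7, 97.01, 87.8, 90.5 and 82.6 CPM. The second entry, ENSMUSG00000116207, gave 85.6, 7.56, 17.7, 16.7 and 25.3 CPM. Added together they came to 101 CPM in vehicle and 107 CPM at 12 h (0.08). Dpm1 (-2.92) shares exons with Gm20716 (0 counts in vehicle and 24.9 CPM at 12 h), and Dpm1 with that partner summed to 0.04. Derpc (2.25) summed with its partner to 0.03, Atrip (-1.33) with Trex1 to -0.34 and Maskbp3 (-1.51) with its partners to 0.46. No source used here says how reads were divided among such entries.

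Just inside the upper threshold lay Sertad1, Ncoa2, Kif1b and Itpr3 (1.0002 to 1.01), and just outside it Tet3, Cbx5, Sqle and Med13l (0.9955 to 0.996). Just inside the lower threshold lay Zfp934, Rbis, Ccdc107 and Rpf2 (-1.0015 to -1.01), and just outside it Chaserr, Phf11d, Apol10b and Taf1d (-0.99 to -0.97). The 10 most abundant genes at 12 h held Actb, Psap (-0.02), Eef1a1 (-0.05), Gapdh, Actg1 (0.01), mt-Co1, Cd74, Pkm, Ldha and Tmsb4x. Ldha alone of these was called.

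Few genes were set apart at 12 h from both the 6 h and the 24 h library. With a threshold of 0.5 on the log2 scale in the same direction, 2 genes were higher and 2 lower of 8693 compared. Cpne1, the only one with an ordinary symbol, stood at 41.9 CPM in vehicle and 55.5, 29.01, 59.7 and 41.6 CPM after 2, 6, 12 and 24 h and shares exons with other genes, as do Gm45140 and Gm21982. Gm10143 was the other lower entry (12.8, 16.5, 4.38, 2.97 and 10.2 CPM).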

How the data were processed

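Messenger RNA of MutuDC cells was sequenced at 5 times, 1 library each, from poly-A selected RNA. The values used are raw gene counts deposited by the authors. Reads were trimmed with Trim Galore and aligned with HISAT2 to GRCm38, per the submitters' processing notes. Versions, the counting program, annotation and strand setting are not stated in the labels. The preparation kit named in the labels' protocols does not mark strand. Counts were scaled by TMM over all 5 libraries in edgeR 4.0.16 (R 4.3.3), with a prior count of 2 in log2 ratios. Genes with at least 10 CPM in either library were compared. The adjustment is a smooth fit (mgcv 1.9.3) of the ratio on transcript length and GC content over compared genes, from the GENCODE annotation of GRCm38, in which 8706 genes were found. The text names members of 70 gene lists, of which 66 had compared members, the genes at each end of the ranking, the largest gains and losses in CPM, those next to the thresholds and the most abundant. Lists and members were chosen with earlier results of these data known. The scripts were tested on simulated data. DESeq2 1.42.0 size factors were 1 of the alternatives. Some called members are counted but not reported by name here.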

Additional observations from a re-analysis of the deposited data

How the results depend on the processing

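The counts of 203 higher and 66 lower genes moved by less than 1.5 times with other scalings, other prior counts or overlapping genes summed with their partners, from 173 to 218 higher and from 47 to 79 lower. The filter and the fold moved them, to 352 and 271 with 1 CPM, 632 and 863 with no filter, 141 and 25 with 30 CPM, 921 and 488 at 1.5-fold, and 39 and 11 at 3-fold. Adjustment for transcript length and GC content gave 123 and 45, the 2 h library as baseline 44 and 35, both together 43 and 28 (chosen after seeing the data), and leaving out overlapping genes 128 and 29. Beyond the construction of each alternative the cause was not tested. Of 107 named genes, 77 were still called when adjusted and 33 with the 2 h baseline.

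With the 2 h baseline the direction turned for Nr2c2 (-0.0097), Tlr9 (-0.026), Heg1 (-0.046), Hipk2 (-0.063), mt-Nd6 (0.33) and both Nnt entries (-0.0996 for ENSMUSG00000025453 and 1.14 for ENSMUSG00000116207). With that baseline and adjustment it turned for Nr2c2 (-0.095), Lcor (-0.096), Heg1 (-0.065), Hipk2 (-0.0393), mt-Nd6 (0.10), Atrip (0.020) and the Nnt entries (-0.085 and 1.15). Summed with partners, an alternative also added after seeing the data, it turned for Dpm1 (0.040), Zc3h11a (0.50), Maskbp3 (0.46) and Nnt (0.082 for ENSMUSG00000116207). The 4 genes apart at 12 h became 0 at a log2 difference of 1 and 100 with a filter of 1 CPM. No paired analysis was possible because each time point has 1 library and the labels give no replicate numbers. The depth of these libraries puts 10 CPM at 328 counts in vehicle and 377 at 12 h, and no result has a replicate library.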

Other observations

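Several non-coding and histone messages were lower at 12 h. Of 4 nuclear long non-coding RNAs 2 were called lower, Malat1 (274, 149.9, 113, 93.2 and 81.7 CPM in vehicle, 2, 6, 12 and 24 h; -1.56, adjusted -1.85), an abundant RNA of nuclear speckles, and Neat1 (-1.14, adjusted -1.79), the scaffold of paraspeckles. Tug1 (0.17) and Norad (0.28) lay slightly above vehicle. All 8 compared snoRNA host genes, which carry small nucleolar RNAs in their introns, were below vehicle with 0 called (median -0.84, adjusted -0.55), from Snhg12 (-0.96) to Zfas1 (-0.19). Of 4 compared replication-dependent histone genes, whose messages mostly lack a poly-A tail, H2bc4 was called lower (85.2, 71.8, 51.2, 33.2 and 43.5 CPM; -1.36, adjusted -0.99). How much poly-A selection enters these levels was not tested.

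Some genes known from other immune cells were detected in this line. Of 14 macrophage and monocyte markers 7 were compared and 1 was called lower, the complement gene C1qa (16.96 against 39.4 CPM; -1.21, adjusted -0.896), with C1qc at -0.904, the lysozyme Lyz2 at -0.74 and the receptor Csf1r at 0.47. The summed level of all 14 markers was 497 CPM at 12 h against 743 CPM in vehicle. Of 10 B cell markers only Ighm, the heavy chain of IgM, was compared (31.5, 24.5, 26.02, 54.1 and 92.3 CPM), at 0.78 against vehicle and 1.14 over 2 h.

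Mfsd4a, a transporter-like membrane protein, was the called gene with the clearest return by 24 h, chosen after its values were seen. It stood at 2.68 CPM in vehicle and 0.857, 16.4, 15.3 and 0.96 CPM after 2, 6, 12 and 24 h, a ratio of 2.49 (2.18 to 2.85).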
